A study of Mus musculus with 30 samples.

Results

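The D-type cyclins Ccnd1, Ccnd2 and Ccnd3, the E-type cyclins Ccne1 and Ccne2, and the kinases they bind, Cdk2, Cdk4 and Cdk6, were followed in the retina of newborn mice. These 8 genes were taken by symbol from 38720 genes in the tables, and all 8 were abundant enough to be tested in both comparisons. Retinas of pups at postnatal day 0 were dissociated with papain, and beads against CD90, the surface protein that Thy1 encodes, split the cells into a retinal ganglion cell (RGC) fraction and a non-RGC fraction. Poly(A) RNA of 9 libraries could be followed, with 3 each of mutant non-RGC cells, mutant RGCs and wild type (WT) RGCs. The labels hold 18 RNA libraries and 12 chromatin samples, and the others were not analysed here. The mutants of the labels carry Math5Cre with Ezh2f/f, alone or together with G9af/+, and the WT mice are C57BL/6. The tables write only that the cells were mutant, so which of these genotypes they hold is not known. Math5 (Atoh7) drives Cre in a subset of retinal progenitors and their descendants, above all the ganglion cell lineage, so a fraction of retina holds cells with and without a history of Cre.

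In G1, D-type cyclins accumulate in response to growth signals and bind Cdk4 or Cdk6, which begin to phosphorylate the Rb protein. E2F factors, released from Rb, then raise genes for DNA replication and the E-type cyclins, and cyclin E with Cdk2 completes Rb phosphorylation and starts S phase. In the newborn retina progenitors still divide while ganglion cells have left the cycle, and Ccnd1 is the leading D-type cyclin of mouse retinal progenitors.

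Promoters of the genes that passed a test are shown because E2F, Sp1-type and NF-Y factors are known regulators of cell cycle promoters. RefSeq promoter entries on GRCm38.p6 matched 5 of the 8 genes (Ccnd3, Ccne1, Cdk2, Cdk4 and Cdk6), and Ccnd1, Ccnd2 and Ccne2 were not matched. The 250 bases before the start are given 5′ to 3′ on the gene's strand. They lie at chr10:128705052-128705301 for Cdk2 and chr7:38107491-38107740 for Ccne1, both on the minus strand. For Cdk6 they lie at chr5:3343643-3343892 on the plus strand, which is inside the outermost RefSeq span of the gene. Capitals mark an E2F motif.
Cdk2: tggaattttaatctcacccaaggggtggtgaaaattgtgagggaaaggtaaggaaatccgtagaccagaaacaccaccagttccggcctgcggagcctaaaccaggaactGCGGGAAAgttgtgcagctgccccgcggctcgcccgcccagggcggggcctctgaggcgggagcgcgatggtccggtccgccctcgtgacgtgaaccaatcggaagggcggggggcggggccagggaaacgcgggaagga
Ccne1: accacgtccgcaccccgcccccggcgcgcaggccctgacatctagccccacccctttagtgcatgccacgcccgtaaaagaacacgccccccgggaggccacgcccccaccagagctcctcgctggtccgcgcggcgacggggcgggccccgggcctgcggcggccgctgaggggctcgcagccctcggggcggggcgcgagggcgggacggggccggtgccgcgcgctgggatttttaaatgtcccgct
Cdk6: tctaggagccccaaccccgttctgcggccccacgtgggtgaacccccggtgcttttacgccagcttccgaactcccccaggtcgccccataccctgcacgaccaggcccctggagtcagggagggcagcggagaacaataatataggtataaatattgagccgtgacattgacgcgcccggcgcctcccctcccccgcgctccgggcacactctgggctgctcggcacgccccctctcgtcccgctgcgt

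The E2F motif was searched on both strands as TTTGGCGC, TTTGCCGC, TTTCGCGC or TTTCCCGC, and 1.86% of 32851 RefSeq promoter windows of the same length held it. Cdk2 held 1 match, GCGGGAAA, starting 140 bases before the start, and the windows of the other 4 matched genes held none. The GC box GGGCGG stood in 32.7% of all windows and the CCAAT box in 33.8%. Cdk2 held 5 GC boxes and 1 CCAAT box, Ccne1 held 4 GC boxes and no CCAAT box, and Cdk6 held neither. The median window had a GC content of 52.4% and 6 CpG dinucleotides, against 63.2% and 21 for Cdk2, 76.0% and 34 for Ccne1, and 66.0% and 22 for Cdk6. The E2F and GC box spellings can share bases, and a match is a run of letters and not a shown binding site.

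Assigned reads, with duplicates removed, ranged from 10551825 to 12259494 per library. In each group library 1 has the largest size factor and library 3 the smallest, and the numbers neither pair groups nor name samples. Nothing says that the 3 libraries of a group come from separate animals, and a p-value here reflects only how far the libraries vary. The values per library below are normalised read counts on 1 scale over all 9 libraries. Each fold change and test was made within 1 deposited table, with 3 libraries against 3, on log2(value + 1). The defining ganglion cell marker Pou4f2 had 910.5, 1807 and 1759.9 normalised counts in mutant RGCs and 2869.7, 2954 and 2297 in WT RGCs, with 341, 497 and 24.7 in mutant non-RGC cells. The mean log2 level of 22 progenitor and Müller glia markers, relative to the mean of 9 libraries, was 0.16, 0.08 and 0.08 in mutant RGC libraries 1 to 3 and -0.61, -0.58 and -0.03 in WT RGC libraries 1 to 3. None of these markers was at 0 over a whole RGC group, and which cells this RNA came from was not tested. WT library 3 stood apart from WT libraries 1 and 2, with a higher level of these markers and less Pou4f2.

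Against WT RGCs, mutant RGCs had more Cdk6 RNA (2.67-fold) and more Ccne2 RNA (1.86-fold), and both differences passed the test. All 8 genes had a fitted log2 fold change above 0, between 0.24 and 1.42, with a median of 0.60 where the median of all tested genes was 0.00. Limma called 2 of the 8 genes, or 25.0%, at an adjusted p under 0.05, where it called 26.0% of 15276 genes, and 13.7% of all genes were called higher. The share called among the 8 genes was thus near that of all genes. In 5 of the 8 genes (Ccnd3, Ccne2, Cdk2, Cdk4 and Cdk6) the 3 mutant libraries lay above the 3 WT libraries on the table's own scale. Of all genes, 51.1% kept the groups apart in either direction. The authors' deposited table called 3 of the 8 (Ccne2, Cdk2 and Cdk6), with 11.9% of its 25338 genes called. That share includes low-abundance genes that were removed before limma, so it is not on the same footing as the 26.0%. Without WT library 3, limma called 7 of the 8, all but Ccnd2, among 42.3% of all genes. Without any 1 of the other 5 libraries it called 0 of the 8, and between 3 and 5 of them had an unadjusted p under 0.05.

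Between the fractions, mutant non-RGC cells had more Cdk2 RNA (1.37-fold) and more Ccne1 RNA (1.37-fold) than mutant RGCs, and both differences passed the test. These 2 of 8 genes, 25.0%, stand beside 17.1% of 15178 genes called in either direction and 5.07% called higher. All 8 fitted log2 fold changes lay above 0, between 0.03 and 0.46, with a median of 0.23 against 0.01 for all tested genes. The 3 non-RGC libraries lay above the 3 mutant RGC libraries in 6 of the 8 genes, all but Ccnd2 and Cdk6. Of all genes, 37.7% kept these groups apart in either direction. The authors' deposited table called 1 of the 8, Cdk2, with 6.47% of its 25252 genes called, again with low-abundance genes included. Leaving out 1 library in turn gave between 0 and 4 calls. The 2 comparisons share the mutant RGC libraries, so their values are set side by side and not as independent results. In these bulk samples, fewer cells of a type and less RNA per cell cannot be told apart.

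**Figure D1:**
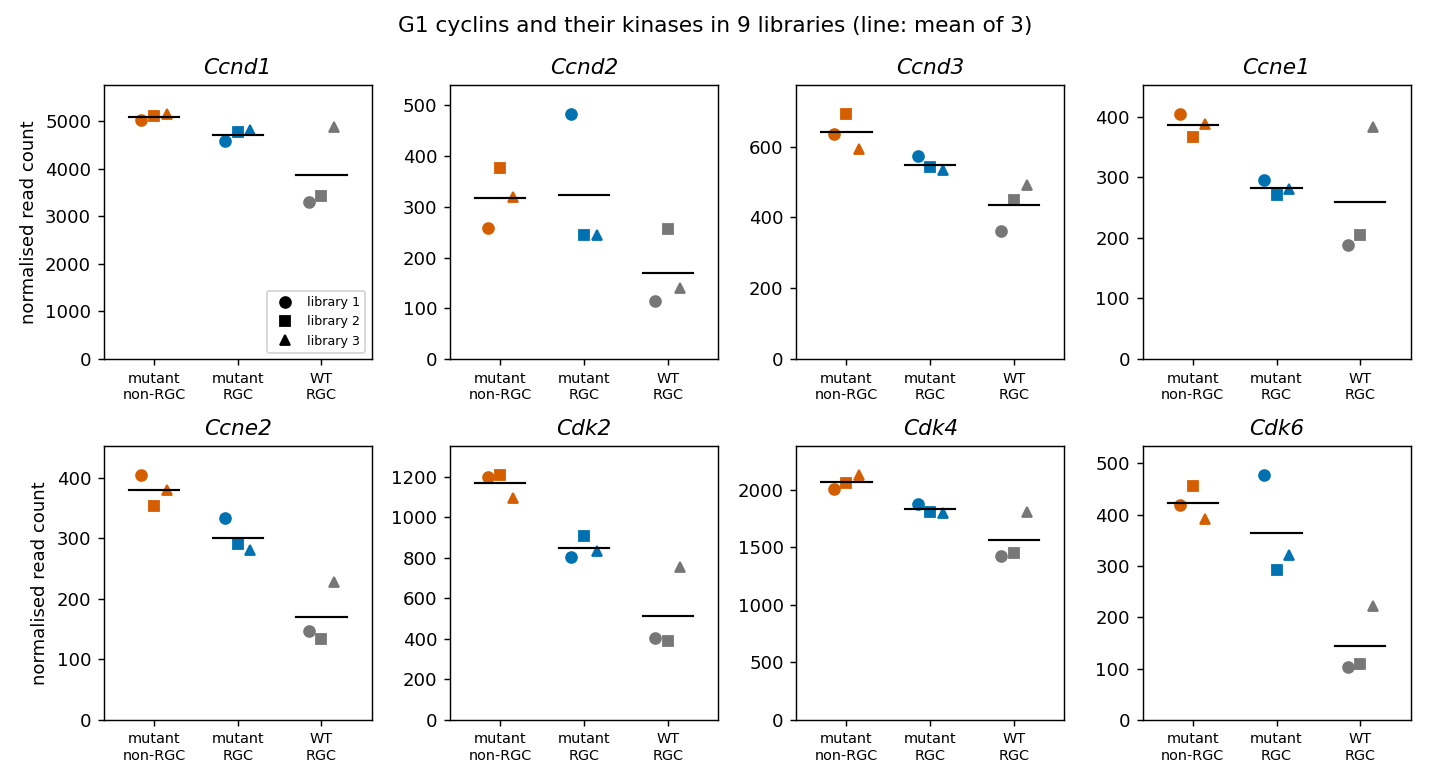
Normalised read count (vertical axis, scale over 9 libraries) of each of the 8 genes in the 3 libraries of mutant non-RGC cells, mutant RGCs and WT RGCs, with 1 point per library and a line at the mean of 3. WT library 3 lies above WT libraries 1 and 2 in all genes except Ccnd2, where library 2 is the highest WT library at 256.

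Ccnd1 (chromosome 7, 144929931 to 144939831, GRCm38) encodes cyclin D1, which links mitogen signals to Cdk4 and Cdk6. It had 5023, 5105 and 5141 normalised counts in mutant non-RGC cells, 4570.1, 4763 and 4815 in mutant RGCs, and 3309, 3430.1 and 4883 in WT RGCs. WT libraries 1 and 2 were low, while WT library 3 lay above all 3 mutant RGC libraries on the scale over 9 libraries. On the scale used for the test, WT library 3 lay above mutant RGC library 1 but below libraries 2 and 3. Mutant RGCs averaged 4716 ± 129 and WT RGCs 3874 ± 876 (SD, n = 3 each), and the log2 fold change of 0.34 (SE 0.15) did not pass (limma adjusted p = 0.132). Without WT library 3 it was 0.52 and passed (limma adjusted p = 0.00407). Mutant non-RGC cells averaged 5089.7 ± 60.5, above all 3 mutant RGC libraries. That log2 difference of 0.11 (SE 0.05) did not pass (limma adjusted p = 0.199), though it did under total-count scaling (0.18, limma adjusted p = 0.0371). Of the 8 genes Ccnd1 had the most reads, up to 5271 in a library, and how far duplicate removal lowers such counts was not tested.

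Ccnd2 (chromosome 6, 127125162 to 127152188), cyclin D2, was the most uneven of the D-type cyclins. Mutant non-RGC cells had 259, 377 and 319 normalised counts, mutant RGCs 482, 245 and 245, and WT RGCs 115, 256 and 139. Mutant RGC library 1 and WT library 2 stood above the other libraries of their groups, and the RGC groups overlapped. The log2 fold change of mutant RGCs over WT RGCs was 0.97 (SE 0.37, limma adjusted p = 0.0879), and it ranged between 0.66 and 1.30 when 1 library was left out. Mutant RGCs averaged 324 ± 137 and WT RGCs 170.0 ± 75.3 (SD, n = 3 each). Mutant non-RGC cells, at 318 ± 59.0 (SD, n = 3), did not differ detectably from mutant RGCs (log2 0.03, SE 0.27, limma adjusted p = 0.949), and the sign of this value changed with the library left out, between -0.12 and 0.35.

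The libraries high in Ccnd2 within each RGC group were also the highest in a list of 12 endothelial and pericyte markers. The mean log2 level of that list, relative to the mean of 9 libraries, was 2.10, -0.83 and -0.20 in mutant RGC libraries 1 to 3 and 0.03, 1.15 and -0.23 in WT RGC libraries 1 to 3. It was -1.09, -0.06 and -0.88 in the mutant non-RGC libraries, where library 2 again had the most Ccnd2. Summed over the list, the markers ranged between 5536 and 10411 normalised counts in mutant RGCs and between 4150.3 and 5655 in WT RGCs, with none of the 12 at 0. In mutant non-RGC cells the sum ranged between 6230.3 and 6808, and it was highest in library 3, not in library 2. The match was not particular to vascular markers. Astrocyte markers were also highest in mutant RGC library 1, WT RGC library 2 and mutant non-RGC library 2, by mean log2 level and by sum. In WT RGCs their mean log2 level varied little, between -0.66 and -0.53. The part of vascular cells or astrocytes in the Ccnd2 values was not tested.

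**Figure D2:**
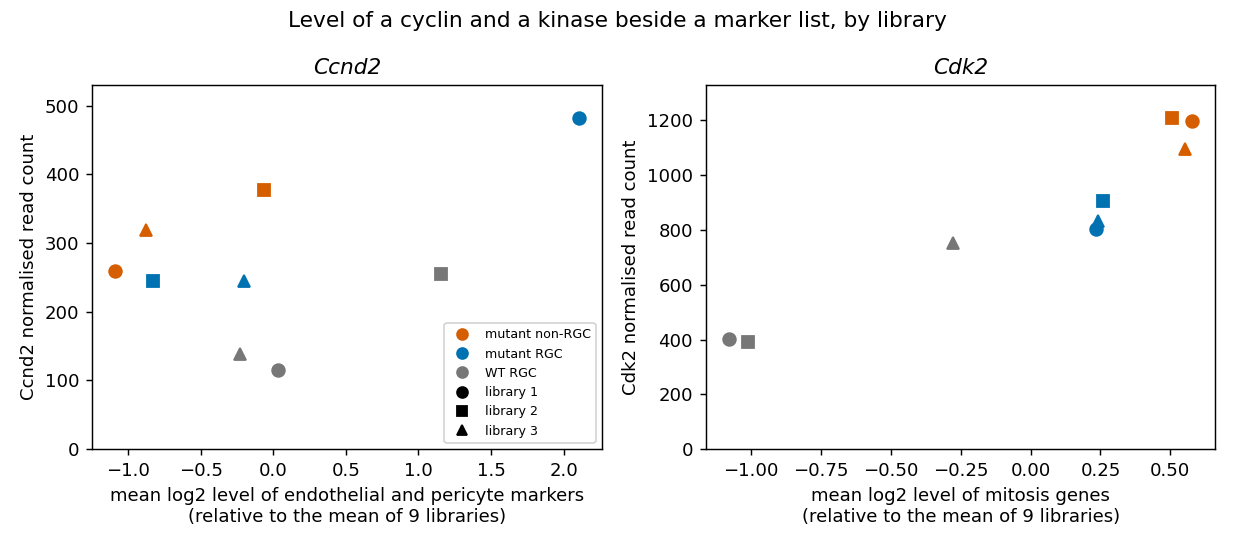
Left, Ccnd2 normalised read count against the mean log2 level of 12 endothelial and pericyte markers, and right, Cdk2 normalised read count against the mean log2 level of 20 mitosis genes, with 1 point per library for mutant non-RGC cells, mutant RGCs and WT RGCs. Mutant RGC library 1 is highest on both left axes, and WT library 3 (Cdk2 at 753) lies between the other WT libraries and the mutants on the right.

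Ccnd3 (chromosome 17, 47505051 to 47599689), cyclin D3, had 635, 691 and 594 normalised counts in mutant non-RGC cells, 573, 541 and 533 in mutant RGCs, and 363, 449 and 492 in WT RGCs. The 3 groups did not overlap, with mutant non-RGC cells highest and WT RGCs lowest. Even so, neither difference passed. The log2 fold change was 0.38 (SE 0.12, limma adjusted p = 0.0601) for mutant over WT RGCs and 0.22 (SE 0.08, limma adjusted p = 0.117) for mutant non-RGC cells over mutant RGCs. The pseudogene Ccnd3-ps took between 2 and 7 reads in a library.

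Cdk6 (chromosome 5, 3341004 to 3531008), a kinase partner of the D-type cyclins, showed the largest fold change of the 8 genes between genotypes. It had 419, 456 and 391 normalised counts in mutant non-RGC cells, 477, 292 and 321 in mutant RGCs, and 103, 108 and 221 in WT RGCs. All 3 WT libraries lay below all mutant libraries, and mutant RGC library 1, which was also the highest in Ccnd2, lay above the non-RGC libraries. Mutant RGCs averaged 364 ± 99.7 and WT RGCs 144 ± 66.8 (SD, n = 3 each). Cdk6 rose in mutant RGCs by 1.42 on the log2 scale (SE 0.33, limma adjusted p = 0.0308), and its fold change was above that of 99.0% of tested genes. The call was lost without any 1 library other than WT library 3 (limma adjusted p between 0.0631 and 0.120) and in limma without a variance trend (0.0513), with log2 values between 1.22 and 1.78 over the 6 fits that left out a library. In mutant non-RGC cells, at 422 ± 32.8 (SD, n = 3), the log2 difference from mutant RGCs was 0.24 (SE 0.18, limma adjusted p = 0.394). Without mutant RGC library 1 it was 0.45 and passed (limma adjusted p = 0.0287).

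Cdk4 (chromosome 10, 127063535 to 127067288), the other kinase of the D-type cyclins, had 2009, 2059 and 2129 normalised counts in mutant non-RGC cells, 1878, 1809.6 and 1803 in mutant RGCs, and 1429, 1454 and 1807 in WT RGCs. WT library 3 reached the level of the lowest mutant RGC libraries. On the scale over 9 libraries the RGC groups overlapped by that library, while on the scale of the table they did not. The log2 fold change of mutant over WT RGCs was 0.27 (SE 0.10, limma adjusted p = 0.0854). Mutant non-RGC cells averaged 2066 ± 60.0 and mutant RGCs 1830.2 ± 41.8 (SD, n = 3 each), with no overlap. The log2 difference of 0.17 (SE 0.05) missed the threshold (limma adjusted p = 0.0599) and passed under upper-quartile scaling (0.0322) and total-count scaling (0.0209).

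Ccne1 (chromosome 7, 38097984 to 38107490), cyclin E1, an activator of Cdk2, had 404, 367 and 389 normalised counts in mutant non-RGC cells, 296, 271 and 281 in mutant RGCs, and 188, 204 and 384 in WT RGCs. WT library 3 lay above all 3 mutant RGC libraries, and the other WT libraries lay below them. The log2 fold change of mutant over WT RGCs was 0.24 (SE 0.27, limma adjusted p = 0.529), and without WT library 3 it was 0.56 and passed (limma adjusted p = 0.00915). Ccne1 was higher in mutant non-RGC cells, at 387 ± 18.6 against 283 ± 12.8 in mutant RGCs (SD, n = 3 each), with no overlap. That difference was 0.45 on the log2 scale (SE 0.09, limma adjusted p = 0.0181). It did not pass without non-RGC library 1 (0.0776), mutant RGC library 2 (0.0850) or mutant RGC library 3 (0.0795), and the authors' deposited table did not call it (adjusted p = 0.104).

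Ccne2 (chromosome 4, 11190433 to 11204779), cyclin E2, the paralog of Ccne1, had 405, 353 and 381 normalised counts in mutant non-RGC cells, 333, 290.3 and 280.3 in mutant RGCs, and 147, 134 and 228 in WT RGCs. The 3 groups did not overlap. Mutant RGCs averaged 301 ± 28.0 and WT RGCs 169.7 ± 50.9 (SD, n = 3 each). Ccne2 rose in mutant RGCs by 0.89 on the log2 scale (SE 0.21, limma adjusted p = 0.0322), and the authors' deposited table gives an adjusted p of 0.000741. In limma the call was lost without any 1 library other than WT library 3 (adjusted p between 0.0666 and 0.125) and without a variance trend (0.0506), with log2 values between 0.74 and 1.13 over the fits that left out a library. Mutant non-RGC cells averaged 379.7 ± 25.7 (SD, n = 3), and the log2 difference from mutant RGCs was 0.33 (SE 0.10, limma adjusted p = 0.0676). It passed without mutant RGC library 1 (0.0357) and under total-count scaling (0.0394).

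Cdk2 (chromosome 10, 128697938 to 128705051), the kinase of the E-type cyclins, had 1199, 1209 and 1094 normalised counts in mutant non-RGC cells, 804, 907 and 834 in mutant RGCs, and 402, 389 and 753 in WT RGCs. The 3 groups did not overlap, and WT library 3 lay close under the mutant RGC libraries. Mutant RGCs averaged 848 ± 53.0 and WT RGCs 515 ± 206 (SD, n = 3 each). The log2 fold change of 0.82 (SE 0.25) just missed the threshold (limma adjusted p = 0.0540). It passed with voom weights (0.0439), under total-count scaling (0.0499), without WT library 3 (0.00129) and in the authors' deposited table (0.0372). Cdk2 was higher in mutant non-RGC cells, at 1167 ± 63.3 (SD, n = 3), than in mutant RGCs, by 0.46 on the log2 scale (SE 0.08, limma adjusted p = 0.0134). The authors' deposited table also called it (0.0240), and in limma the call was lost without non-RGC library 1 (0.0623) or mutant RGC library 3 (0.0590).

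**Figure D3:**
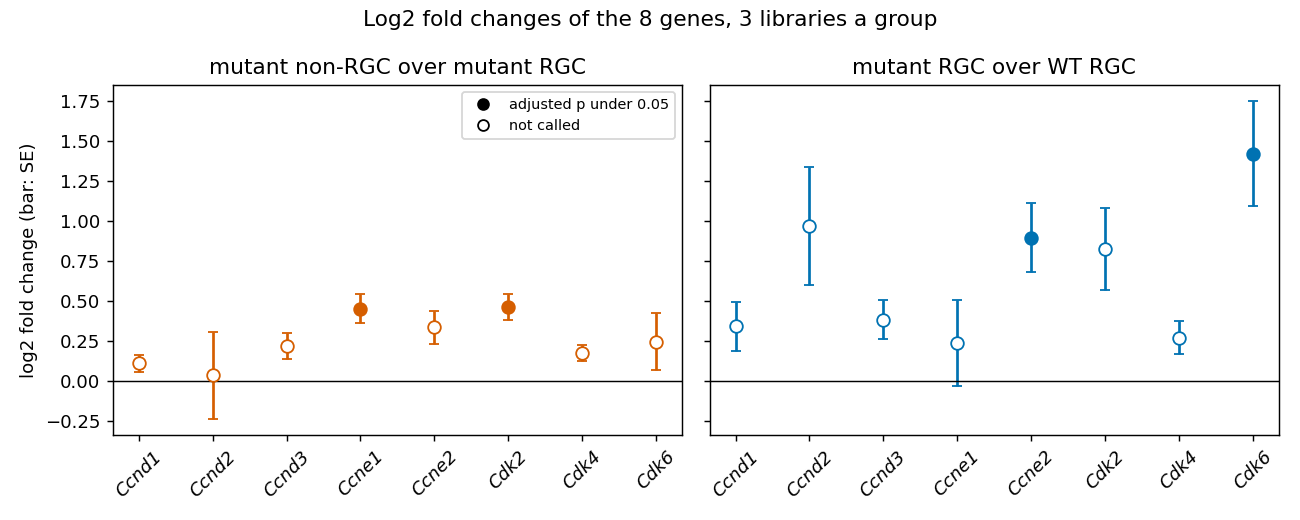
Log2 fold change (points) with its SE (bars) of the 8 genes, for mutant non-RGC cells over mutant RGCs on the left and mutant RGCs over WT RGCs on the right, from 3 libraries a group; filled points have a limma adjusted p under 0.05. Ccne1 and Cdk2 are filled on the left and Ccne2 and Cdk6 on the right, where Cdk6 is the highest at 1.42.

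All 8 members except Ccne1 share ground with other RefSeq genes, and no source used here gives the strand setting of the counting. Cdk2 lies wholly in the span of Pmel (7114 bases), Ccne2 shares 5622 bases with Ints8, Ccnd1 shares 818 with LTO1, Ccnd3 shares 359 with Bysl, and Cdk4 shares 2 with Tspan31. Noncoding RNA genes also overlap Cdk6 (Gm29868 by 19218 bases and Gm36470 by 2556), Ccnd3 (Gm41590 by 7217), Ccnd2 (9330179D12Rik by 2800) and Ccne2 (A630034I12Rik by 798). These are overlaps of whole gene spans, introns included, and the overlap of exons was not measured. Reads in exons that do overlap cannot be assigned with certainty. The smallest read count of a member was 103, for Cdk6 in a WT library, where counting error is 9.85%.

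The balance within each pair or trio was measured as a share of reads in the same library, which does not depend on scaling. Transcript lengths were not used, so a share says how the mix of reads differed and not which transcript was the more abundant. Of the reads of Ccne1 and Ccne2, Ccne1 took 47.1%, 48.3% and 50.1% in mutant RGCs and 56.0%, 60.4% and 62.7% in WT RGCs. The means were 48.5% ± 1.53 and 59.7% ± 3.41 (SD, n = 3 each), a difference of -11.3 percentage points with no overlap. The exact two-sided permutation test gave p = 0.1, the smallest that 3 against 3 allows, and 0.5 after adjustment over 10 shares tested. Leaving out 1 library moved the difference between -13.1 and -9.76. WT library 3, the closest to the mutants in mitosis genes, was the farthest from them in this share.

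Of the reads of Cdk4 and Cdk6, Cdk4 took 79.7%, 86.1% and 84.9% in mutant RGCs and 93.3%, 93.1% and 89.1% in WT RGCs. The means were 83.6% ± 3.38 and 91.8% ± 2.36 (SD, n = 3 each), a difference of -8.23 percentage points with no overlap (exact permutation p = 0.1, adjusted p = 0.5). It stayed between -9.59 and -6.31 when 1 library was left out. In this share WT library 3 was the closest of the WT libraries to the mutants. The shares in mutant non-RGC cells overlapped those of mutant RGCs for Ccne1 (49.9%, 50.9% and 50.5%) and for Cdk4 (82.7%, 81.9% and 84.5%). Within the D-type trio the groups overlapped in both comparisons. Ccnd1 took 84.4% ± 2.72 of D-type reads in mutant RGCs and 86.3% ± 2.96 in WT RGCs (SD, n = 3 each). Ccnd2 took 5.79% ± 2.41 in mutant RGCs and 3.92% ± 1.98 in WT RGCs, and Ccnd3 took 9.82% ± 0.329 and 9.79% ± 0.990 in the same groups (SD, n = 3 each).

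**Figure D4:**
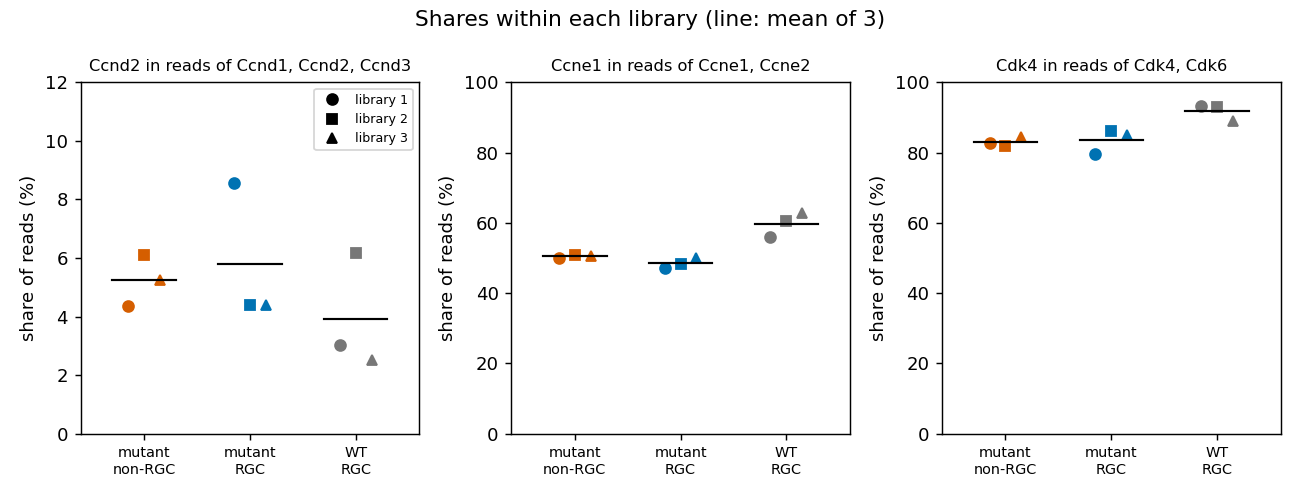
Share of reads (%) that Ccnd2 takes of the D-type cyclins (axis to 12%), Ccne1 of the E-type cyclins and Cdk4 of Cdk4 and Cdk6, with 1 point per library in mutant non-RGC cells, mutant RGCs and WT RGCs and a line at the mean of 3. The Ccne1 and Cdk4 shares of all mutant libraries lie below those of all WT libraries, with Ccne1 at 50.9% or less in the mutants and at 56.0% or more in WT.

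Downstream of these cyclins, genes that E2F factors raise for DNA replication were higher in mutant RGCs than in WT RGCs in 21 of 28 cases, with none lower and a median log2 fold change of 0.85. Pole, the catalytic subunit of DNA polymerase epsilon, averaged 1145 ± 75.3 in mutant RGCs and 611 ± 79.4 in WT RGCs (SD, n = 3 each, on the table's scale), a log2 fold change of 0.91 (limma adjusted p = 0.0215). Pola1, of DNA polymerase alpha, rose by 1.13 (limma adjusted p = 0.0238) and the mismatch repair gene Msh6 by 0.52 (0.0229). All 20 mitosis genes rose, with a median of 1.09, among them Cenpf (1.31), Cenpe (1.15) and the spindle checkpoint kinase Ttk (1.25), with limma adjusted p between 0.0237 and 0.0238. Of 6 tested later cyclins with Cdk1, 4 rose and none fell, including Ccnb1 (1.25), Ccnb2 (1.07) and Ccna2 (1.05), which act in S phase and mitosis. These counts rest on all 6 libraries, where 13.7% of all genes were called higher and 26.0% in either direction. Without 1 library the numbers called ranged between 0 and 27 of 28 E2F target genes and between 0 and 20 of 20 mitosis genes. Their medians stayed between 0.69 and 1.05 and between 0.95 and 1.36, respectively. For the later cyclins with Cdk1 the calls ranged between 0 and 5, with medians between 0.80 and 1.31.

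Among the regulators of the same step, 7 of 13 Rb and E2F family genes rose in mutant RGCs over WT RGCs and none fell, with a median of 0.58. Rbl1, the Rb relative p107, rose by 1.11 (limma adjusted p = 0.0243), Rb1 by 0.37 (0.0242) and the repressor E2f6 by 0.52 (0.0244). The inhibitors of cyclin-dependent kinases were mixed, with 2 of 6 higher and 1 lower. Cdkn1a (p21) fell by 0.85 on the log2 scale, at 780.0 ± 171 normalised counts in mutant RGCs and 1388 ± 117 in WT RGCs (SD, n = 3 each, limma adjusted p = 0.0262). Cdkn2c (p18), an inhibitor of Cdk4 and Cdk6, rose by 1.05 (0.0295) and Cdkn1b (p27) by 0.35 (0.0469). Of 8 genes that switch these kinases by phosphorylation, 5 rose and none fell, among them the phosphatases Cdc25c (1.44, limma adjusted p = 0.0308) and Cdc25a (0.55, 0.0346) and the cyclin H gene Ccnh (0.29, 0.0466). Without 1 library, those called higher ranged between 0 and 11 of the Rb and E2F family and between 0 and 2 of the inhibitors. For the phosphorylation genes they ranged between 0 and 6, and all were highest without WT library 3. Inhibitors called lower ranged between 0 and 1. The counts of these lists stand beside 13.7% of all genes called higher and 26.0% called in either direction.

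Of 12 turnover genes 3 rose and none fell, with a median of 0.06, a share called near the 26.0% of all genes. Without WT library 3, 4 were higher and 2 lower, and without any 1 of the other libraries limma called none. The 3 were Skp2 (0.89, limma adjusted p = 0.0268) and Cks1b (0.57, 0.0498), whose ubiquitin ligase removes p27, and Fbxw7 (0.62, 0.0282), whose ligase removes cyclin E. Myc, an activator of Ccnd2 and Cdk4 in other settings, fell by 0.99 on the log2 scale, at 388 ± 110.4 normalised counts in mutant RGCs and 756 ± 139 in WT RGCs (SD, n = 3 each, limma adjusted p = 0.0346). It was the only called gene of the 4 in its list, a share near the 26.0% of all genes. Over the fits that left out 1 library, between 0 and 1 of this list were called lower and between 0 and 2 higher. In that list Mycl had a log2 fold change of 0.43 (limma adjusted p = 0.0604) and Max of 0.14 (0.138).

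In mutant non-RGC cells over mutant RGCs the medians of the same lists lay between -0.02 and 0.30. Of the E2F target genes 10 of 28 rose and none fell (median 0.27), of the mitosis genes 15 of 20 rose and none fell (0.30), and of the Rb and E2F family 6 of 13 rose and none fell (0.30). Of the later cyclins and Cdk1, 3 of 6 rose, and of the phosphorylation genes 2 of 8 rose, with none lower in either list (medians 0.30 and 0.18). Over all genes 5.07% were called higher. Without 1 library the calls ranged between 0 and 10 of the E2F target genes, 1 and 14 of the mitosis genes and 1 and 7 of the Rb and E2F family, and between 0 and 4 of the later cyclins and 0 and 2 of the phosphorylation genes. Skp2 rose by 0.39 (limma adjusted p = 0.0113), 1 further turnover gene fell, and the median of the 12 was -0.02. None of the 6 CDK inhibitors (median 0.07) and none of the 4 Myc family genes (0.01) were called, with Cdkn1a at -0.58 (limma adjusted p = 0.107) and Myc at -0.44 (0.234).

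**Figure D5:**
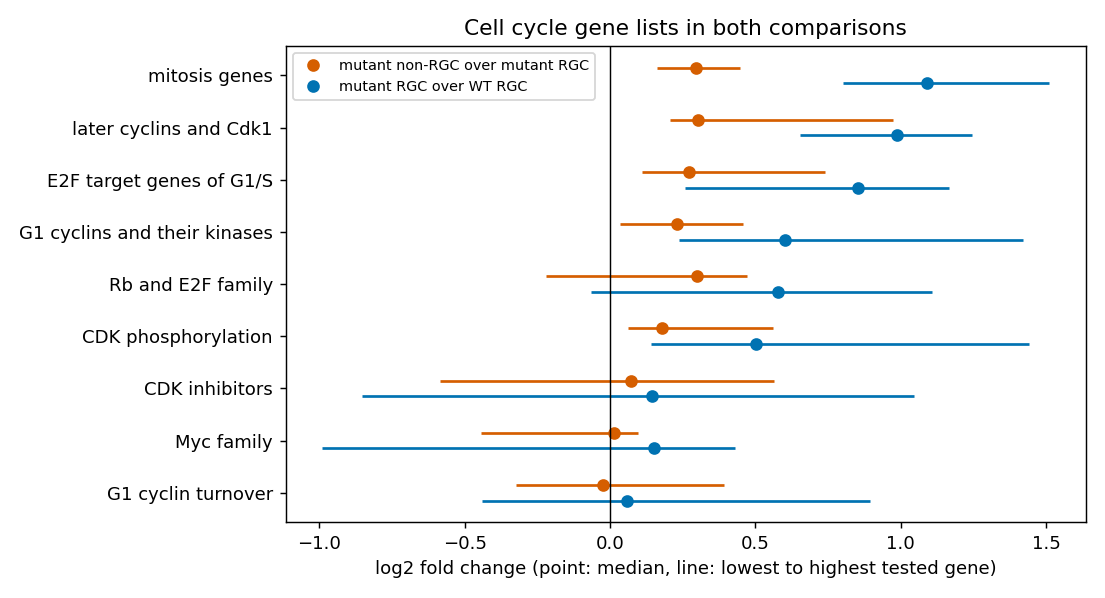
Median log2 fold change (point) and lowest to highest tested gene (line) of 9 cell cycle lists, for mutant non-RGC cells over mutant RGCs and for mutant RGCs over WT RGCs. Mitosis genes have the highest median in mutant over WT RGCs (1.09), and the CDK inhibitor, Myc, turnover and Rb and E2F family lists straddle 0 in both comparisons.

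Some cell type markers differed between the groups in which the 8 genes were compared. Against WT RGCs, mutant RGCs were higher in 7 of 22 progenitor and Müller glia markers (median 0.51), 7 of 14 photoreceptor markers (0.71) and 8 of 14 amacrine and horizontal cell markers (0.59), with none lower. They were lower in 9 of 22 ganglion cell markers, with none higher (median -0.73). Of all 15276 genes tested, 2092 were called higher (13.7%) and 1879 lower. No microglia marker of 12 and no astrocyte marker of 5 was called (medians -0.25 and 0.66), and 1 of 12 endothelial and pericyte markers was higher (0.10). Without mutant RGC library 1, which had the most Csf1r, 7 of the 12 microglia markers were lower (median -0.97), and the endothelial and pericyte median was -0.81. Over the fits that left out 1 library, the numbers called higher ranged between 0 and 19 for progenitor markers, 0 and 11 for photoreceptor markers and 0 and 10 for amacrine and horizontal cell markers, all highest without WT library 3. Ganglion cell markers called lower ranged between 0 and 15, highest without mutant RGC library 1, with medians between -0.89 and -0.47. Progenitor markers summed to between 44736 and 47338 normalised counts in mutant RGCs and between 31015 and 42557 in WT RGCs, and ganglion cell markers to between 25879.8 and 40871 in mutant RGCs and between 51726 and 61677 in WT RGCs. No gene of either list was at 0. The mean log2 level of the mitosis genes was 0.24, 0.26 and 0.24 in mutant RGC libraries 1 to 3 and -1.08, -1.01 and -0.28 in WT RGC libraries 1 to 3. Whether the cell mix differed, and its part in the values of the 8 genes, was not tested.

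Mutant non-RGC cells were lower than mutant RGCs in 13 of 22 ganglion cell markers (median -1.69) and in 12 of 12 microglia markers (-6.19), with none higher, and higher in 4 of 22 progenitor markers (0.18), with none lower. Of the photoreceptor markers 1 of 14 was lower (median 0.13), and of the amacrine and horizontal cell markers 1 of 14 was higher (0.08). No endothelial and pericyte marker (-1.17) and no astrocyte marker (0.02) was called. Of all 15178 genes tested, 770 were called higher (5.07%) and 1820 lower. The microglia receptor gene Csf1r had 7.70, 14.5 and 8.23 normalised counts in mutant non-RGC cells and 2003, 507 and 456 in mutant RGCs. The part of microglia RNA in the differences between the fractions was not tested. Library 1 of the mutant RGCs, high in Ccnd2 and Cdk6, was also the highest of its group in Csf1r.

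The genes whose log2 levels ran most like each member over the 9 libraries were found by Pearson correlation among 11711 genes, as a description in which library composition is shared by all points. Ccnd1 ran like Cxcr4 (r = 0.991), which encodes a chemokine receptor, and Nrarp (0.990), a regulator of Notch signalling. Ccnd2 ran like Fn1 (0.996), which encodes the matrix protein fibronectin, then Ltbp1 and Dhrs3. Ccnd3 ran like Alms1 (0.981), Loxl3 and Pttg1, and Ccne1 like Csad (0.978), Rassf1 and H2afz. Ccne2 ran like the cytokinesis gene Cep55 (0.996), Rbl1 and Zfp454. Cdk2 ran like Rcc1 (0.999), Foxm1, a factor of mitotic genes, and Etv4. Cdk4 ran like Fxyd1 (0.996), Bcl2l12 and Actl6a, and Cdk6 like Tns3 (0.995), Snx33 and Celsr1.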

How the data were processed

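Poly(A) RNA libraries were read as single reads, per the series' design text, and the authors used FastQC, STAR 2.3, featureCounts and DESeq with build mm10, per the submitters' processing notes. The deposited table names show primary alignments and removal of duplicates. Per the file headers, the authors deposited a mean normalised count per condition (a signal, not a count), a fold change as a ratio, its log2 value, a p-value and an adjusted p-value.

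Each library's read counts were worked back from the deposited means, each a sum of 3 whole counts over 3 size factors. A solution lay within 1e-09 of a whole number, with the next best more than 10 times further off and beyond 2e-10. Of the genes above 0, 99.975% to 100.0% per condition were solved, and 38718 of 38718 genes in both tables gave the same mutant RGC counts, genes at 0 included. In the table of genotypes 6 genes, and in that of fractions 1 gene, had no unique solution and were left out. Because the tables hold no counts, the test planned for normalised values was used. Limma 3.58.1 (R 4.3.3) with a variance trend was fitted to log2(value + 1), with the authors' size factors, after removing genes whose mean over 6 libraries was below 10. The threshold was an adjusted p of 0.05 (Benjamini-Hochberg). Values over all 9 libraries use median-of-ratios factors. The scripts were tested on simulated data.

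Shares were planned per kilobase. Transcript lengths were not used here, so shares are of reads, with exact permutation tests. All 8 members are named, with up to 3 genes of smallest adjusted p per cell cycle list and the 3 genes most like each member. A few genes so chosen are left unreported here. Members and lists were chosen with earlier results of these data known. Coordinates and promoters are RefSeq on GRCm38. Alternatives were other pseudocounts, filters, scalings and tests, and leaving out each library.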

Additional observations from a re-analysis of the deposited data

How the results depend on the processing

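Between mutant and WT RGCs limma called 3971 genes, and 2112 without a variance trend, where 0 of the 8 members were called and 4 had an unadjusted p under 0.05. Leaving out 1 library gave between 3 and 6478 called genes and between 0 and 7 called members, and the highest of each came without WT library 3. Without mutant RGC library 1, 2 or 3 the called genes were 2284, 3 and 9, and without WT library 1 or 2 they were 9 and 8. Between the fractions limma called 2590 genes, against 1615 without a variance trend and 1635 in the authors' deposited table. Members called there were 5 under total-count scaling and 1 in the authors' deposited table, and leaving out 1 library gave between 438 and 3325 genes and between 0 and 4 members. Total-count scaling also moved the split between the fractions, with 1465 higher and 1598 lower, where the main fit had 770 higher and 1820 lower. The cause was not tested. The log2 fold change of Ccnd2 between the fractions reversed in the authors' deposited table (-0.022) and ranged between -0.12 and 0.35 when 1 library was left out. The other 7 members kept a log2 fold change above 0 under every alternative run in both comparisons, as did Ccnd2 between genotypes. Counts of each list without 1 library were added after seeing the data. No paired analysis was possible because the deposited means carry no replicate numbers. Shares with exon or longest-transcript lengths were not run.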
